A study of Mus musculus with 4 samples.

Results

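Genes of the oxidative phosphorylation system were examined in whole mouse ears 48 h after the ears had been treated with 2,4-dinitrofluorobenzene, a contact allergen that inflames skin. The genes were taken by name. They are all genes on the array whose name starts with Ndufa, Ndufb, Ndufc, Ndufs or Ndufv (complex I), Uqcr (complex III), Cox4 to Cox8 (complex IV) or Atp5 (complex V), and Sdha, Sdhb, Sdhc and Sdhd (complex II). This gave 90 genes, measured by 143 of 59305 spots and 134 of 55681 probes, out of 34797 gene names on the array. Of these 90 genes, 88 passed the filter on dim probes and were tested, among 23632 genes tested in all. The other two, Cox7b2 and Cox8c, are complex IV isoforms of the testis and were not well above background on any array. Subunits made up 81 of the 90 genes, and 9 matched the names without being subunits.

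Oxidative phosphorylation makes ATP in mitochondria. Complexes I and II pass electrons from NADH and succinate to ubiquinone, complex III passes them to cytochrome c, complex IV passes them to oxygen, and complex V uses the resulting proton gradient to make ATP. Most subunits are encoded in the nucleus and made in nearly every cell, but complex IV has isoforms for some tissues: Cox6a2, Cox7a1 and Cox8b are the forms of heart and skeletal muscle (Cox7a1 and Cox8b also of brown fat), and Cox6a1, Cox7a2 and Cox8a are their counterparts in other tissues.

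The mutant mice (2, genotype K14Cre RelAfl/fl) carried floxed alleles of RelA, a subunit of the transcription factor NF-kB, and a Cre recombinase under the K14 promoter, which is active in keratinocytes and not in the muscle, fat or immune cells of the ear. The wild-type mice (2, genotype RelAfl/fl) carried the same floxed alleles without the recombinase. Both groups received the allergen, no untreated ears were analysed here, and age and sex were not given in the labels used here. Each mouse gave 1 one-colour array labelled from 100 ng of RNA, and all 4 arrays were on the same slide.

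Spots well above background made up 61.2% to 64.3% of an array, and 0 spots were saturated. The first principal component held 58.8% of the variance and set the array of mutant 2 (score 55.6) apart from the other 3 (scores between -31.5 and -7.15). On that array 63 of the 64 spots that were dark there alone lay in 1 corner, whose limits were set after the values were seen. Rela, the targeted gene, had log2 signals of 4.59 and 4.72 in mutant mice and 4.48 and 4.60 in wild-type mice. The labels do not say which exons were deleted, so its probe may lie outside them and does not check the labels. Markers of every cell type examined were present: all 13 keratinocyte genes and all 28 skeletal muscle genes listed were tested, and Ucp1, which defines brown adipocytes, had log2 signals of -4.25 and -4.25 in mutant ears and -4.58 and -4.41 in wild-type ears.

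A log2 signal here is the log2 intensity of a probe minus that of the array's 75th percentile, so that 0 is the level of the 75th percentile. Signals of different probes are not comparable, since probes differ in how well they bind, and only the same probe is set against itself across arrays. In whole ears, fewer cells of a type and less RNA per cell cannot be told apart.

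None of the 88 genes passed the test. In limma's moderated test, 0 were higher and 0 were lower in mutant ears at an adjusted p under 0.05, where 0.0169% of all genes tested passed. At an unadjusted p under 0.05 there were also 0 genes in either direction, where 6.51% of all genes passed (2.96% higher and 3.55% lower). Differences were small throughout: 81 of 88 genes (92%) differed by less than 0.2 on the log2 scale, compared with 71% of all genes, and 1 gene (1.14%) differed by at least 0.5, compared with 6.81% of all genes. All genes include many dim probes, and these shares were not matched for signal level. The log2 fold change (mutant minus wild type throughout) lay above 0 for 66 genes and below 0 for 22. Its median was 0.048, beside 0.014 over all genes tested. The median standard error of a single gene was 0.12, beside 0.13 over all genes tested. The groups did not overlap for 16 genes that were higher in mutant ears (18.2%, where 18.9% of all genes did so) and for 4 genes that were lower (4.55%, where 17.4% of all genes did so). The 4 lower genes were Ndufv3, Cox5b, Cox4i2 and Ndufaf3. With 2 mice per group, an exact permutation test could not give a two-sided p below 0.333. Each limma p-value uses the gene's spread between these 2 mice of each group (2 residual degrees of freedom). It also uses the spread over all genes tested (2.5 prior degrees of freedom).

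**Figure D1:**
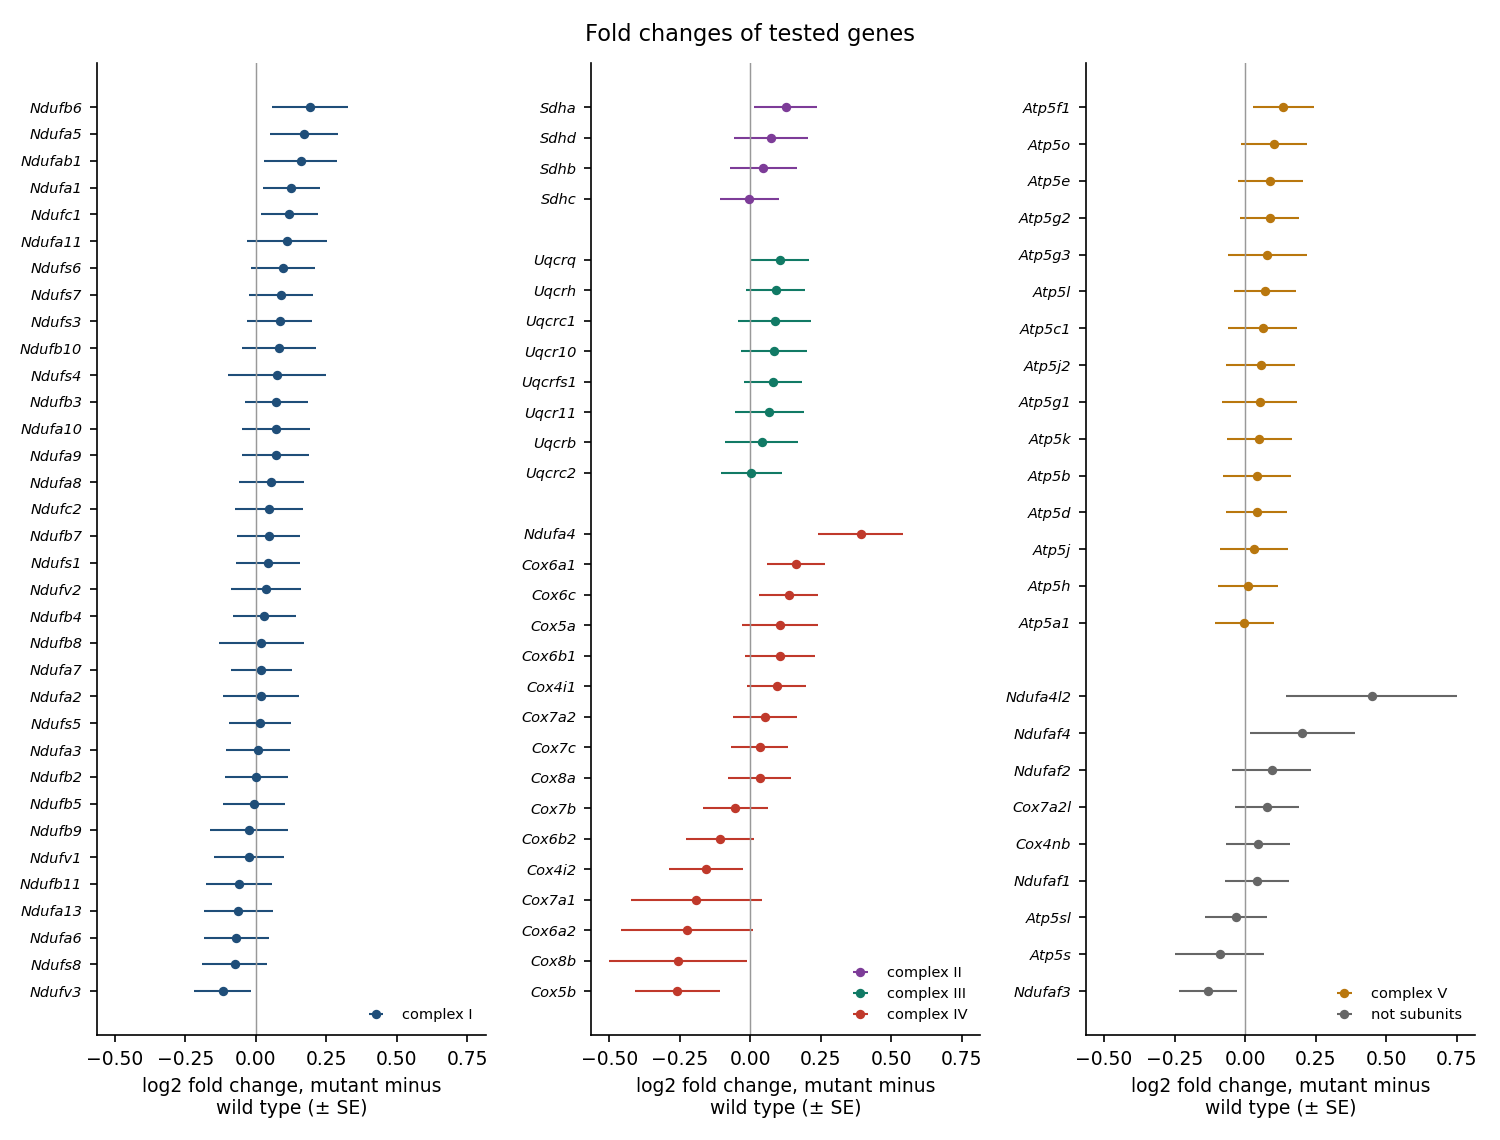
Log2 fold change, mutant minus wild type, on the horizontal axis for the tested genes named on the vertical axis, with limma's standard error as a bar (2 mice per group). Ndufa12 is left out because its spot on the array of mutant 2 was dark. Most points lie between -0.2 and 0.2, and Ndufa4 and Ndufa4l2 lie farthest to the right.

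By complex, median log2 fold changes ran from 0.04 in complex I to 0.093 in the ubiquitous subunits of complex IV. The SD of a complex's median between mice of a group was 0.038 for ubiquitous complex IV and 0.065 for complex III, below their median differences. For complexes I, II and V it was 0.075, 0.082 and 0.080, above their median differences. Each SD rests on 2 mice per group, and no test was run on the medians. Complex I is the largest complex and the entry point for NADH. Its 36 tested subunits had a median log2 fold change of 0.04, with 26 above 0 and 10 below. Ndufb6, an accessory subunit of the membrane arm, had log2 signals of 4.10 and 4.00 in mutant ears, against 3.73 and 3.99 in wild-type ears. The difference was 0.19 ± 0.14 (SE, limma adjusted p = 0.872), and both mutant values stood above both wild-type values, though one pair differed by little. Ndufa5, an accessory subunit of the matrix arm, had 5.56 and 5.39 in mutant ears, against 5.26 and 5.35 in wild-type ears, a difference of 0.17 ± 0.12 (limma adjusted p = 0.873). The groups again stood next to each other without overlap. Ndufv3, an accessory subunit next to the flavin subunit, had 5.21 and 5.17 in mutant ears, against 5.30 and 5.32 in wild-type ears, a difference of -0.12 ± 0.10 (limma adjusted p = 0.882).

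Ndufa12, an accessory subunit of the arm that takes up NADH, was the member with the largest difference, and it rested on a single spot. Its log2 signals were 5.09 and -7.46 in mutant ears, against 4.73 and 4.91 in wild-type ears, which gave -6.0 ± 4.19 (limma adjusted p = 0.872). Its only probe sits in the corner of dark spots on the array of mutant 2, so the mutant group measured it on 1 of 2 arrays. That 1 value, 5.09, was above both wild-type values. Without mutant 1 the dark spot is the only mutant value, and the fit takes the spread from the wild-type mice alone. It gave -12.28 with a limma adjusted p of 0.00338, which describes that 1 dark spot and not the mutant mice. Without mutant 2 the difference was 0.27. The probe is shown because the apparent difference rests on this 1 oligonucleotide. It lies at chr10:93683562-93683621 on the plus strand (mm9, from the array files), and no capitals are used:
Ndufa12 probe: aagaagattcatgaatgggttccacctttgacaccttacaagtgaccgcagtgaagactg

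Of the 13 spots of members in that corner, 11 were within 0.3 of the mean of the other arrays. The other 2 were of Ndufa12 and of a probe of Ndufb5 that was left out of the fit as outlying and did not represent its gene. They were the only 2 of 143 spots that lay over 1 log2 unit below the mean of the other arrays. Besides Ndufa12, the corner held the representing probes of 7 genes. Leaving out every probe in the corner gave a median of 0.046 over 81 genes.

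**Figure D2:**
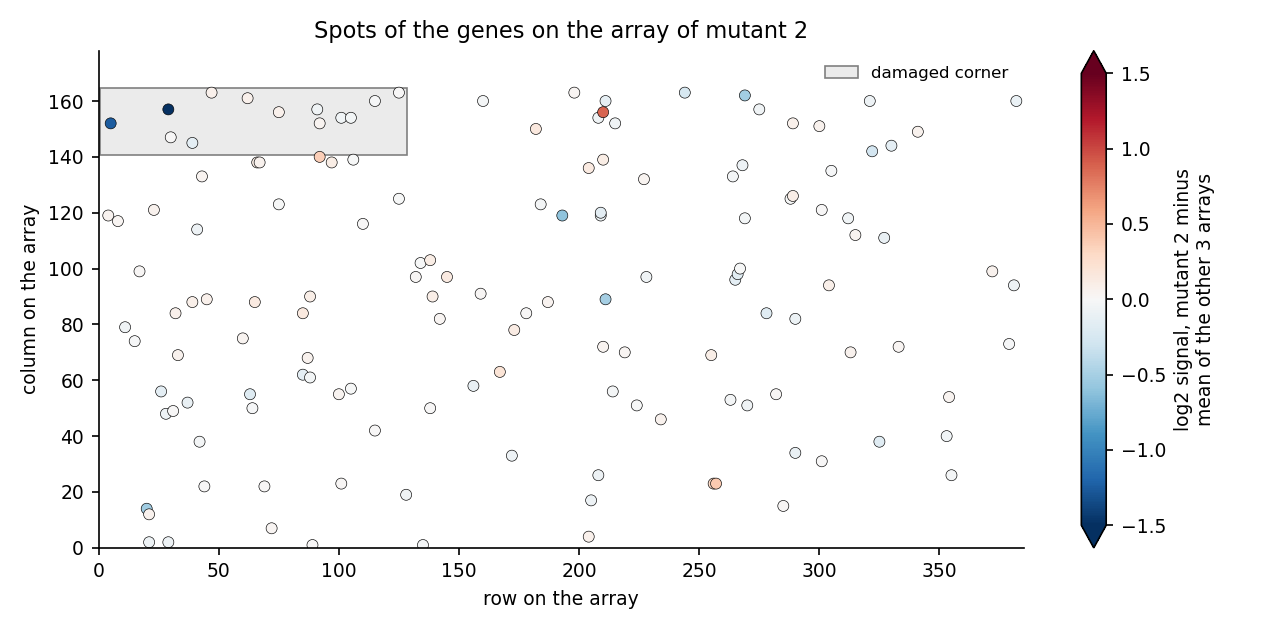
Position of the 143 spots on the array of mutant 2, by row and column, coloured by the log2 signal of mutant 2 minus the mean of the other 3 arrays (clipped at 1.5 in either direction). The grey box marks the corner of dark spots, in which 13 of the spots lie. The 2 darkest blue spots lie inside the box.

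Complex II links the citric acid cycle to the respiratory chain, and its 4 subunits had a median log2 fold change of 0.059. Sdha, the catalytic flavoprotein, had log2 signals of 4.04 and 4.01 in mutant ears, against 3.83 and 3.98 in wild-type ears. Its difference was 0.13 ± 0.11 (limma adjusted p = 0.885), with no overlap. The iron-sulphur subunit Sdhb and the membrane anchors Sdhc and Sdhd overlapped between the groups, with differences of 0.046, -0.0035 and 0.073 (limma adjusted p = 0.962, 0.998 and 0.939).

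All 8 complex III subunits had a log2 fold change above 0, between 0.0033 and 0.10, with a median of 0.083. Uqcrq, a small subunit beside cytochrome b, had log2 signals of 6.28 and 6.28 in mutant ears, against 6.15 and 6.20 in wild-type ears, a difference of 0.10 ± 0.10 (limma adjusted p = 0.885). Uqcrh, the hinge protein near cytochrome c1, had 6.21 and 6.13 in mutant ears, against 6.07 and 6.10 in wild-type ears, a difference of 0.089 ± 0.11 (limma adjusted p = 0.906). All 8 subunits had their lowest value in wild type 1, so the shared sign goes with the level of 1 array. Without wild type 1 the median of complex III was 0.0096.

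In complex V, 14 of 15 subunits were above 0, with a median log2 fold change of 0.056 and a range from -0.0024 to 0.14. Atp5f1, subunit b of the peripheral stalk (Atp5pb in RefSeq), had log2 signals of 4.42 and 4.46 in mutant ears, against 4.25 and 4.36 in wild-type ears. The difference was 0.14 ± 0.11 (limma adjusted p = 0.878). Atp5o, which joins that stalk to the catalytic head, had 4.79 and 4.79 in mutant ears, against 4.60 and 4.77 in wild-type ears, a difference of 0.10 ± 0.12 (limma adjusted p = 0.903). Atp5a1, the alpha subunit of the head, had 5.94 and 6.0 in mutant ears, against 5.95 and 6.0 in wild-type ears, a difference of -0.0024 ± 0.10 (limma adjusted p = 0.998). The 2 probes of Atp5j, a coupling factor of the stalk, gave 0.032 for the brighter and -0.41 for the dimmer. Of 3 probes of Atp5k (subunit e), the files place 2 on chromosome Y beside the one on chromosome 5. They gave 0.05 to 0.11, and signal of near-identical copies cannot be separated there. Both genes were named after their values were seen. Of the 15 subunits, 14 had their lowest value in wild type 1, and without that mouse the median was -0.013.

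Complex IV was mixed in direction. Its 16 tested genes had a median log2 fold change of 0.033, with 9 above 0 and 7 below, and the 11 ubiquitous subunits among them had a median of 0.093. Ndufa4, a subunit first assigned to complex I and later to complex IV, had log2 signals of 5.74 and 5.91 in mutant ears, against 5.29 and 5.59 in wild-type ears. The groups did not overlap, and the difference of 0.39 ± 0.15 had the smallest adjusted p of all 88 genes (limma adjusted p = 0.781). Under the other settings that kept all 4 mice the smallest adjusted p of any member ranged between 0.622 and 0.999, and Ndufa4 had an unadjusted p under 0.05 in 5 of them.
Cox5b, a zinc-binding subunit on the matrix side, had 5.05 and 4.94 in mutant ears, against 5.41 and 5.10 in wild-type ears, a difference of -0.26 ± 0.15 (limma adjusted p = 0.855). Its high value was in wild type 1, and without that mouse the difference was 0.079. A second Cox5b probe, which the files place on chromosome 15 instead of chromosome 1, gave 0.061 with its spot in the corner of dark spots, so the 2 probes of Cox5b disagree by 0.32 and its value is uncertain.

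None of the isoforms of other tissues passed the test. Cox4i2, the form of lung and oxygen-sensing cells, had log2 signals of -0.92 and -1.18 in mutant ears, against -0.88 and -0.90 in wild-type ears, a difference of -0.16 ± 0.13 (limma adjusted p = 0.879). Cox6b2, a testis form, overlapped between the groups, with a difference of -0.11 ± 0.12 (limma adjusted p = 0.899). Ndufa4l2, a relative of Ndufa4 that is induced in low oxygen, had 1.55 and 2.40 in mutant ears, against 1.56 and 1.49 in wild-type ears. Mutant 2 alone was high, mutant 1 lay between the wild-type values, and the difference was 0.45 ± 0.30 (limma adjusted p = 0.869).

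Over the members, the median absolute difference was 0.095 between the mutant mice and 0.12 between the wild-type mice, against 0.073 between the groups. All genes tested had the same order, with 0.14, 0.15 and 0.12, so it is no trait of the members. A mean of 2 mice varies less than a single mouse, which by itself makes the difference between groups smaller. Mutant 1 held the highest of the 4 values for 44 of 88 genes (50%), compared with 24.8% of all genes. Wild type 1 held the lowest for 62 genes (70.5%), compared with 34.2% of all genes. Mutant 2 was below mutant 1 in 64 of the 88 genes, with a median difference, mutant 2 minus mutant 1, of -0.087, beside 0.011 over all genes. Wild type 2 exceeded wild type 1 in 74 genes, by a median of 0.11, beside 0.028 over all genes. The median difference between the groups was 0.048. The share in which wild type 1 was lowest moved with the scaling, in both directions. It was 36.4% after quantile normalization, beside 30.8% of all genes, and 53.4% with normexp background correction, beside 38.6% of all genes. It was 56.8%, beside 27.9% of all genes, with the percentile taken over probes above background on all arrays. With centring on the array median it was 75%, beside 43.7% of all genes.

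**Figure D3:**
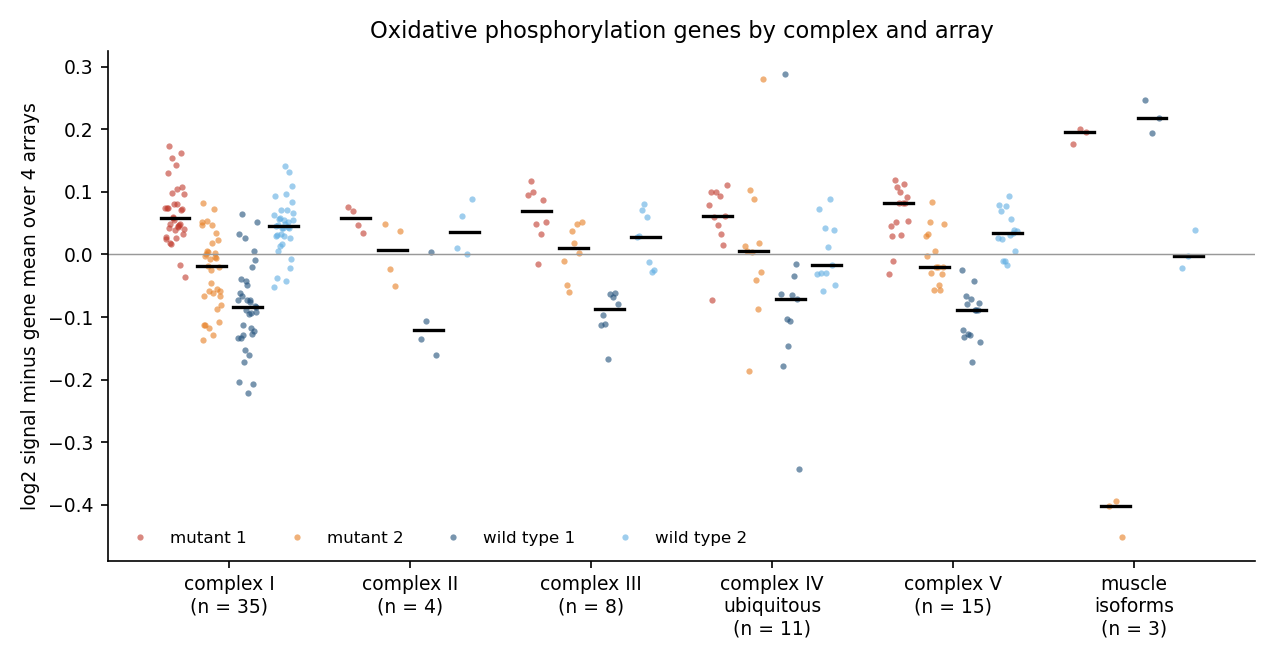
Log2 signal of each gene minus its own mean over the 4 arrays, by complex and array, mutant mice left of wild-type mice. Points are genes (Ndufa12, the isoforms of other tissues and the matches that are not subunits left out), black bars are medians. In complexes I, II, III and V and in the ubiquitous part of complex IV the bar of wild type 1 is the lowest, and in the muscle isoforms that of mutant 2 is.

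The muscle isoforms had another pattern across arrays than most members. Cox6a2, which replaces Cox6a1 in muscle, had log2 signals of 4.25 and 3.67 in mutant ears, against 4.32 and 4.05 in wild-type ears, a difference of -0.23 ± 0.24 (limma adjusted p = 0.892). Cox7a1, which replaces Cox7a2, had 3.04 and 2.45 in mutant ears, against 3.04 and 2.84 in wild-type ears, a difference of -0.19 ± 0.23 (limma adjusted p = 0.909). Cox8b, which replaces Cox8a, had 3.31 and 2.66 in mutant ears, against 3.33 and 3.15 in wild-type ears, a difference of -0.26 ± 0.25 (limma adjusted p = 0.885). For all 3 genes mutant 2 was the lowest array, and mutant 1 stood close to wild type 1, so that the groups overlapped. Their mean log2 fold change was 0.28 below the median of the other members, and this value was 0.011 below without mutant 2.

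The counterparts showed no such dip in mutant 2. Cox6a1 had log2 signals of 7.66 and 7.70 in mutant ears, against 7.50 and 7.54 in wild-type ears, a difference of 0.16 ± 0.10 (limma adjusted p = 0.865), with no overlap. Cox7a2 differed by 0.053 ± 0.11 (limma adjusted p = 0.952) and Cox8a by 0.033 ± 0.11 (limma adjusted p = 0.972), both with overlapping groups. Relative to its counterpart on the same array, each isoform had a difference between the groups below 0: -0.39 for Cox6a2, -0.24 for Cox7a1 and -0.29 for Cox8b. The mean of these ratios by array, centred on each gene's mean, was 0.12 and -0.43 in mutant ears, against 0.30 and 0.0074 in wild-type ears. These ranges overlap, since mutant 1 lies between the wild-type mice. The probes of each pair share no run longer than 6 bases. The Cox7a1 probe is shown because it joins sequence that is apart in the genome. Its 60 bases lie within chr7:30970337-30970948 on the plus strand (mm9), on both sides of a gap of 552 bases. Where in the probe the gap falls was not determined. No capitals are used:
Cox7a1 probe: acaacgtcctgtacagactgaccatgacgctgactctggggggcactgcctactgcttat

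Markers of skeletal muscle moved with these isoforms. All 28 markers were lower in mutant ears than in wild-type ears on average (median log2 fold change -0.28), 0 passed the threshold, and 6 were lower without overlap, where 17.4% of all genes were. All 28 had their lowest value in mutant 2. Myh7, the slow myosin heavy chain, had the largest difference of the list: its log2 signal was 1.52 and 0.17 in mutant ears, against a mean of 1.65 in wild-type ears (log2 fold change -0.81 ± 0.47 SE, limma adjusted p = 0.855). Mutant 1 lay between the wild-type values, so the groups overlapped, and the difference was -1.48 without mutant 1 and -0.13 without mutant 2. The summed level of the 28 markers, in units of the array's 75th percentile, was between 395 and 562 in mutant ears and between 523 and 587 in wild-type ears, and no marker was at background in either group. This sum follows the brightest probes of the list. Centred on each gene's mean, the median of the markers was 0.14 and -0.39 in mutant ears, against 0.22 and 0.034 in wild-type ears. The mean of the 3 isoforms was 0.19 and -0.42 in mutant ears, against 0.22 and 0.0051 in wild-type ears. The isoforms minus the muscle markers differed between the groups by 0.025, compared with -0.31 for the isoforms minus their counterparts. How far the amount of muscle in the sample sets the level of these isoforms was not tested.

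**Figure D4:**
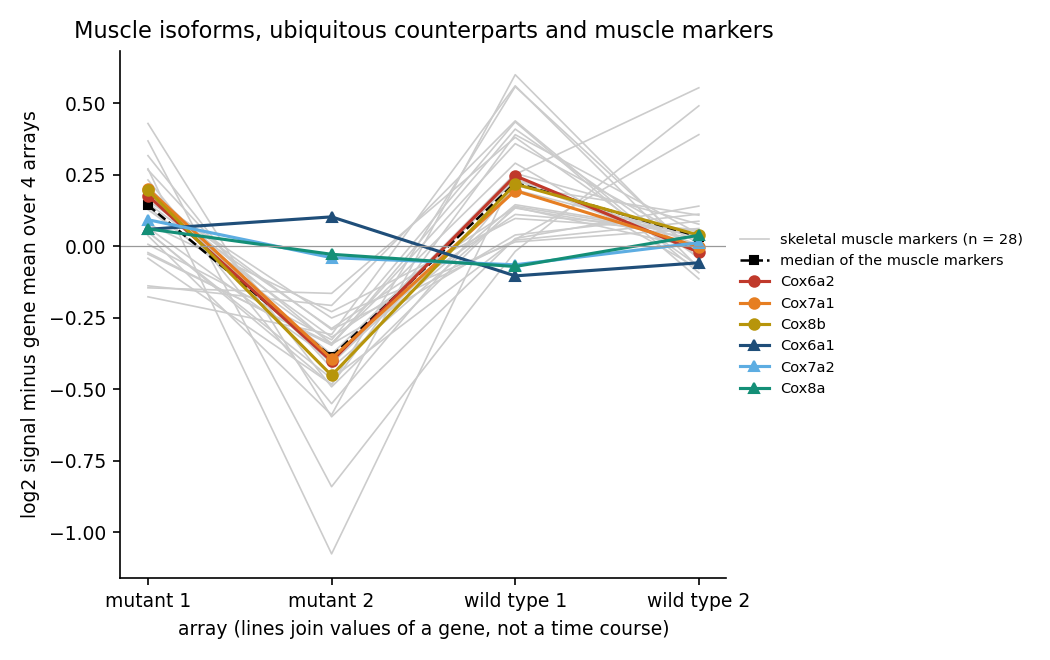
Log2 signal of each gene minus its own mean, by array, mutant mice left of wild-type mice. Circles are the muscle isoforms, triangles their counterparts, grey lines the 28 muscle markers and squares their median. The circles and squares are lowest in mutant 2, at -0.45 to -0.39, while the triangles stay between -0.10 and 0.10.

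Promoters of the pairs were read for sites of factors known to act on respiratory chain genes or muscle genes. Sequences are from RefSeq (GRCm38.p6, 250 bases before to 50 after the start), and 74 of the 90 genes had one. The letters searched, on both strands, were GCATGCGC (an NRF1 site), CCGGAAGT (an ETS site), AAGATGGC (a YY1 site), CTATTTTTA (a MEF2 site), an E-box and a TATA box. Among 70 promoters of 65 subunit genes other than the muscle isoforms, the NRF1 letters were in 14.3%, compared with 2.71% of all 32851 promoters. A longer NRF1 form with 1 free base was in 25.7% and 4.6%. The YY1 letters were in 14.3% of the subunit promoters and 2.75% of all, and the ETS letters in 7.14% and 3.89%. The E-box letters, CAGCTG, were in 7.14% and 16.3%. The MEF2 letters were in 0 of the 70 promoters and in 0.493% of all, and a looser MEF2 form was in 1.43% and 3.69%. The TATA letters, TATAAAA, were in 4.29% and 5.48%. Of the 2 muscle isoforms with a sequence, Cox8b held E-box and TATA letters and Cox7a1 held none of the 6. Of the counterparts, Cox8a held ETS letters, Cox6a1 NRF1 letters and Cox7a2 none of the 6, so Cox7a1 and Cox7a2 did not differ in these letters.

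The promoters of Cox8b and Cox8a are shown because, of the 2 isoform pairs with both sequences, this one differs in the letters it holds. Capitals mark the matches: 2 E-boxes and the TATA letters in Cox8b (chr7:140900397-140900696, minus strand), and 2 ETS sites in Cox8a, read on the other strand as ACTTCCGG (chr19:7217567-7217866, minus strand). Counted from the annotated start, the E-boxes begin at bases -19 and 17 and the TATA letters at base 5. The ETS sites begin at bases -6 and 32. The TATA letters thus lie after the annotated start, and whether they act as a TATA box was not tested. The promoters are written 5′ to 3′ along the gene:
Cox8b: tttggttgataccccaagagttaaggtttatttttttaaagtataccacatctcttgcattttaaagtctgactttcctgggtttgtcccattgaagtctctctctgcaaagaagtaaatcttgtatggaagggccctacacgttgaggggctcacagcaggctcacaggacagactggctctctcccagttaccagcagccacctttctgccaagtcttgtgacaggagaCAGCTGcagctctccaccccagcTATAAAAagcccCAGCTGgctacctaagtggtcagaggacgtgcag
Cox8a: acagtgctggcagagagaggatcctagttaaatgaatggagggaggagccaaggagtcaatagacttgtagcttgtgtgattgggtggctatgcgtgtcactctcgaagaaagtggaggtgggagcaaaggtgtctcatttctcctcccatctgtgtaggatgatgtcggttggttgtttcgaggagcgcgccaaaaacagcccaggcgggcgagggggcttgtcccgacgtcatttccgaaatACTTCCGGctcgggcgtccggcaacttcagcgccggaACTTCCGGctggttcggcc

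A match describes the letters only, and binding was not measured. Nrf1, Gabpa and Gabpb1 (the ETS factor GABP) and Yy1, whose letters these are, were among 15 tested regulators of mitochondrial gene expression. In these 15 genes 0 passed the threshold, 7 were higher and 2 lower without overlap (18.9% and 17.4% of all genes were), and the median log2 fold change was 0.08. Peo1, the mitochondrial DNA helicase (Twnk), had a difference of 0.30 ± 0.11 (limma adjusted p = 0.745), and Ppargc1a, a coactivator of mitochondrial genes, one of -0.32 ± 0.15 (limma adjusted p = 0.833).

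The 9 matches that are not subunits comprised Ndufa4l2 (above), 4 assembly factors of complex I, and 4 others. Of the assembly factors, Ndufaf4 had log2 signals of 1.94 and 1.64 in mutant ears, against 1.40 and 1.77 in wild-type ears, a difference of 0.20 ± 0.19 (limma adjusted p = 0.885). Ndufaf3, in the corner of dark spots, had -0.027 and 0.0032 in mutant ears, against 0.11 and 0.13 in wild-type ears, a difference of -0.13 ± 0.10 (limma adjusted p = 0.876). Ndufaf1 and Ndufaf2 differed by 0.041 and 0.095. Cox7a2l, a factor of supercomplex assembly, differed by 0.079, Cox4nb (Emc8, a membrane protein complex) by 0.046, Atp5s by -0.09 and Atp5sl by -0.032. All these genes overlapped between the groups except Ndufaf3.

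Other genes of the respiratory chain, not taken by name, gave a median log2 fold change of 0.034 over 29 tested genes. None passed the threshold, 8 were higher and 3 lower without overlap, where 18.9% and 17.4% of all genes were. Higd1a, a factor of complex III and IV supercomplexes that is induced in low oxygen, had log2 signals of 5.91 and 6.10 in mutant ears, against 5.28 and 5.57 in wild-type ears, a difference of 0.58 ± 0.15 (limma adjusted p = 0.642). Cox17, a copper chaperone of complex IV, had -5.56 and -5.30 in mutant ears, against -4.91 and -4.97 in wild-type ears, a difference of -0.49 ± 0.13 (limma adjusted p = 0.658). Its probe was well above background on 1 of 2 mutant arrays, and with normexp background correction the difference was -0.064 (limma adjusted p = 0.908). Tmem126b, an assembly factor of complex I with its spot in the corner, differed by -0.35 ± 0.11 (limma adjusted p = 0.726). Ttc19, of complex III, differed by -3.91 ± 2.78 (limma adjusted p = 0.873) with a spot in the corner that was dark in mutant 2. The 18 genes of the citric acid cycle had a median of 0.015, and Idh3a, which makes NADH for complex I, differed by 0.21 ± 0.13 (limma adjusted p = 0.861). The 17 tested genes of ubiquinone synthesis and mitochondrial carriers had a median of -0.0066.

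**Figure D5:**
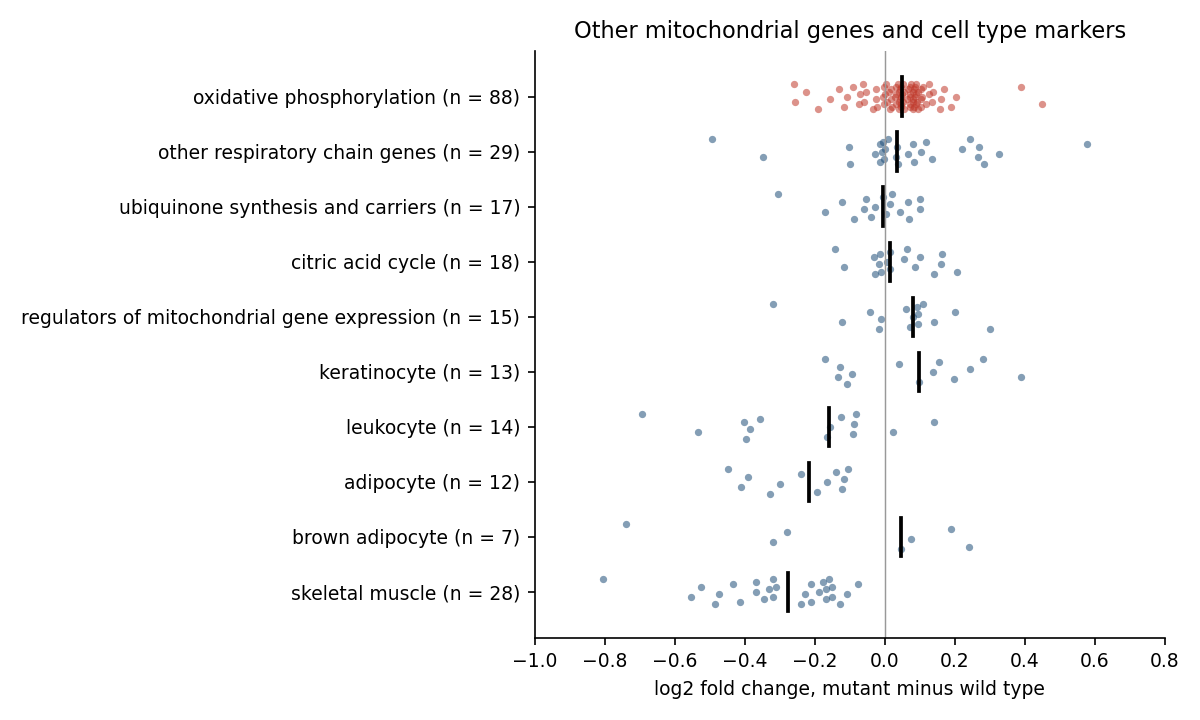
Log2 fold change, mutant minus wild type, of each tested gene by list (points), with the list's median (black bar). Ndufa12 and Ttc19 lie beyond the left edge. The median of the oxidative phosphorylation genes is 0.048, and those of skeletal muscle, adipocyte and leukocyte markers are -0.28, -0.22 and -0.16.

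Markers of other cell types also differed between arrays. The 12 adipocyte markers were all below 0 (median -0.22), and their summed level was between 59.7 and 74.0 in mutant ears and between 74.8 and 79.2 in wild-type ears. Of these 12, 6 were lower and 0 higher without overlap, where 17.4% and 18.9% of all genes were, and 0 passed the threshold. The 7 brown adipocyte markers, a cell type that also uses Cox7a1 and Cox8b, had a median of 0.046, with summed levels between 37.7 and 40.8 in mutant ears and between 47.1 and 53.2 in wild-type ears. That sum was mostly Cidea and Elovl3, which together gave between 34.4 and 37.2 in mutant ears and between 42.3 and 50.9 in wild-type ears. The other 5 overlapped in sum, with 3.26 and 3.54 in mutant ears, against 2.31 and 4.87 in wild-type ears, and 4 of the 7 markers had a difference above 0. Ucp1, the defining marker, was among these 4, with a difference of 0.24 ± 0.12 (limma adjusted p = 0.83). The sum of the 7 thus follows Cidea and Elovl3 and cannot be read as the level of brown adipocytes. The 14 tested leukocyte markers had a median of -0.16, with summed levels between 78.0 and 81.1 in mutant ears and between 84.9 and 90.7 in wild-type ears. Of these 14, 6 were lower and 0 higher without overlap, and 0 passed the threshold. The 13 keratinocyte markers had a median of 0.099, with summed levels between 1546 and 1657 in mutant ears and between 1490 and 1624 in wild-type ears. Of these 13, 2 were lower and 5 higher without overlap, and 0 passed the threshold. As these sums add probes whose signals are not comparable, each follows its brightest probes and is not the level of a cell type. Wild type 1 held the lower end of the keratinocyte range and the upper end of the adipocyte and leukocyte ranges. The part of cell makeup in the low values of oxidative phosphorylation genes in wild type 1 was not tested.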

How the data were processed

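Total RNA of 4 mouse ears was labelled with Cy3 and read on 4 arrays. Per the file headers, the deposited intensities are the output of the software Agilent Feature Extraction, version 10.7.3.1, with background subtracted and a spatial trend corrected, without scaling between arrays, and probes were placed on mm9. Deposited flags of 0 or 1 mark spots above background, saturated or outlying. The authors' series values hold the ratio of processed intensity to the array median, found from the values within 1.46e-05 on the log2 scale. From these deposited intensities log2 values were computed here and the array's 75th percentile (620 and 589 in mutant mice, 664 and 623 in wild-type mice) was subtracted. Left out were 3671 control spots and outlying spots, and spots of a probe were averaged. A probe was tested where both arrays of either group held it above background, and a gene stands by its brightest such probe. The number of arrays limits the precision.

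The fit was limma 3.58.1 (lmFit, eBayes) in R 4.3.3, two-sided, with 2 residual and 2.5 prior degrees of freedom and Benjamini-Hochberg adjustment over 23632 genes. The code was run on values simulated from the fit's own variance model. That simulation held no dark corner and no shift of a whole array, so it does not check the fit against these. Files were read with data.table (version 1.17.8), and sequences and figures used python 3.11.15, pandas 2.3.3 and matplotlib 3.10.9. The members and gene lists were chosen with earlier results of these data known. Genes named were the muscle isoforms, their counterparts and isoforms of other tissues, complex II, the 2 largest differences in each direction per complex, matches that are not subunits, members past a threshold, up to 4 genes of other lists, and Rela. Other genes named (Gabpa, Gabpb1, Nrf1, Yy1, Ucp1, Ndufb5, Atp5j and Atp5k) were chosen after their values were seen. The values of 1 gene of complex I are not reported here. RefSeq symbols matched 84 of the 90 genes. Same-numbered mice showed a correlation of deviations of -0.195, so replicate numbers were not treated as pairs. Alternatives covered background, normalization, filters, probes, variance model, the corner and left-out mice.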

Additional observations from a re-analysis of the deposited data

How the results depend on the processing

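Over 16 other settings, 146 of 160 values that answer a comparison were counted as unchanged. For a median this meant a move smaller than the spread between mice, even where its sign changed. Counts without overlap were allowed to change within a set ratio. Settings that changed only the variance model or added a block could not move a median or a count without overlap. The authors' series values repeated the centring on the array median. So 146 overstates how many values were put to a test. For single genes, a sign was counted as turned only where the log2 fold change had been at least its standard error. With quantile normalization the median of the ubiquitous complex IV subunits was 0.035, compared with 0.093 in the main setting, 11 members were lower without overlap (12.5%, beside 18.7% of all genes), and 32 had their lowest value in wild type 1. With the replicate block 0 members passed the threshold, and with a crossed pairing, added after the correlation was seen, also 0. Over all genes 1 passed in each, compared with 4 without a block, 14 with trend and robust variances, 2 with quantile normalization and 81 without mutant 1. Leaving out 1 mouse at a time gave between 18 and 63 members higher without overlap (20.5% to 71.6%, beside 30.5% to 39.2% of all genes). Between 7 and 25 were lower (7.95% to 28.4%, beside 30.1% to 33.5% of all genes). The share of higher members exceeded that of all genes without mutant 2 (59.1% beside 35.1%) and without wild type 2 (71.6% beside 39.2%). It was smaller without mutant 1 (23.9% beside 37.9%) and without wild type 1 (20.5% beside 30.5%). A lone mouse of a group was then assumed to vary like the other group. The median of the members then ran from -0.027 to 0.11, and that of complex I from -0.034 to 0.12, complex II from -0.020 to 0.16, complex III from 0.0096 to 0.13 and the ubiquitous complex IV subunits from 0.014 to 0.12. The muscle isoforms minus the other members ran from -0.55 to -0.011. By single genes, Cox8b ran from -0.58 (without mutant 1) to 0.068 (without mutant 2), Cox5b from -0.42 (without wild type 2) to 0.079 (without wild type 1), Ndufa12 from -12.28 to 0.27 and Ttc19 from -8.08 to 0.25. The last 2 genes passed the threshold without mutant 1 and turned sign without mutant 2. Ttc19 also turned with probes above background on all 4 arrays (0.078) and without the corner (0.10), both of which leave out its dark spot. The cause of the other changes was not tested. With 2 mice per group, differences of 0.39 (Ndufa4) and 0.58 (Higd1a) did not pass the test.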
